A study of Macaca mulatta with 6 samples.

Results

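The REV-ERB, ROR and DEC genes form an accessory loop of the circadian clock, and their expression over the day was examined in the adrenal gland of the rhesus macaque. The set held every probe set whose platform annotation names NR1D1, NR1D2, RORA, BHLHE40 or BHLHE41, with or without a further gene. These are 5 of the 13119 genes the annotation names, on 9 of the 22215 probe sets that are not controls: 3 for NR1D1, 1 for NR1D2, 2 for RORA, 2 for BHLHE40 and 1 for BHLHE41. All 3 probe sets that name NR1D1 also name THRA, the thyroid hormone receptor alpha gene. NR1D1 is therefore called NR1D1/THRA throughout wherever a value is given. Left adrenal glands came from 6 ovariectomized female rhesus macaques, a single animal every 4 h of the day from 3 AM to 11 PM, with no genetic change or drug in any of them per the labels. All had been caged singly for 3 months with light and dark of 12 h each, and had been without food for 12 h at necropsy. The labels name no hour of lights-on. The animals taken at 3 AM and 7 AM were 12 years old, and the 11 AM animal was aged 10 years plus 37 days. The 3 PM animal was 8 years plus 106 days old and the 11 PM animal 8 years plus 70 days, while the 7 PM animal, the youngest, was 7 years plus 82 days old. Removal of the ovaries is shared by every animal, and no clock time has a second animal.

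In the core of the clock the activators CLOCK (or NPAS2) and BMAL1 switch on their own repressors, the PER and CRY proteins. NR1D1 and NR1D2 encode the nuclear receptors REV-ERB alpha and beta, which bind haem and repress BMAL1 and other genes that carry ROR response elements. RORA encodes a receptor that binds the same elements and activates them. BHLHE40 and BHLHE41 encode DEC1 and DEC2, basic helix-loop-helix repressors that compete with CLOCK and BMAL1 at E-boxes. The adrenal gland has its own clock, which gates the response of the steroid-producing cortex to ACTH.

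RNA was hybridised to an Affymetrix array of human probes, and each value is an intensity in arbitrary units for 1 probe set on 1 array. Where macaque and human sequence differ, a probe may read low, so no level is set against that of another probe set. The 2% trimmed mean was 325.04 to 325.09 on all arrays, and correlations between arrays across probe sets were 0.916 to 0.928. The geometric mean of the hybridisation controls was lowest at 3 AM (542) and 3 PM (669) against 948 to 1101 elsewhere. RNA integrity, read as the 3'/5' ratio of GAPDH, was 0.721 to 0.988 at 3 AM, 7 AM, 11 AM and 11 PM, and stood highest at 3 PM (1.16) and 7 PM (1.15). That of ACTB was 0.610 to 0.819. Summed over 8 genes, markers of the adrenal cortex ran from 55166 at 3 AM to 83025 at 7 PM. Summed over 7 genes, chromaffin markers of the medulla ran from 13944 at 3 AM to 35146 at 7 AM, and no marker was at 0 on any array. The tissue is bulk, so fewer cells of a type and less RNA per cell cannot be told apart.

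At least 1 probe set of NR1D1/THRA, NR1D2, BHLHE40 and BHLHE41 had an unadjusted p under 0.05 for a 24-h curve, and neither RORA probe set did. A cosine with a period of 24 h was fitted with limma to log2(intensity + 1) of each of the 11108 probe sets whose mean reached the median level. Of the 9 probe sets, 8 reached that level, the exception being 217476_at of NR1D1/THRA. By limma's moderated F test, 6 of these 8 had an unadjusted p under 0.05, while 5.44% of all probe sets tested did (604 of 11108). After Benjamini-Hochberg adjustment over all probe sets 0 of the 8 passed, as did 0 of the 11108, a share of 0%, and the ordinary F test also gave 0. By the ordinary F test 3 of the 8 had an unadjusted p under 0.05. Over all 11108 probe sets 417 had such a p by that test together with a fitted ratio of at least 1.5. The median F was 8.52 over the 8 and 0.862 over all probe sets tested, and the median log2 peak-to-trough difference was 1.28 against 0.44. Without the 7 PM array 3 of the 8, rather than 6, had an unadjusted p under 0.05. In that fit 521 of all 11108 had such a p with a fitted ratio of at least 1.5.

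**Figure D1:**
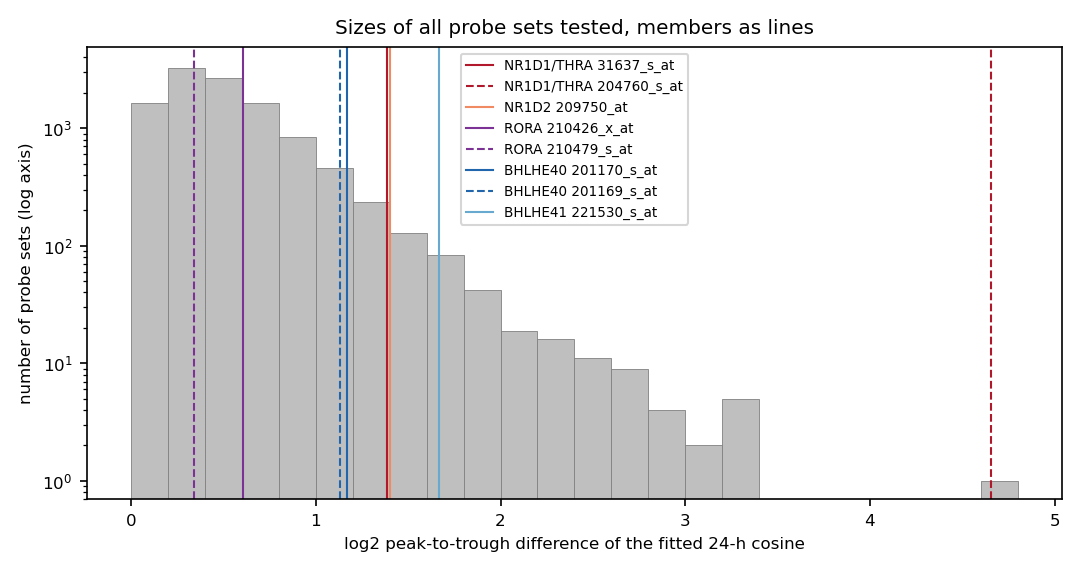
Number of probe sets (vertical axis, log scale) by the log2 peak-to-trough difference of the fitted cosine (horizontal axis) over the 11108 tested, with a vertical line for each of the 8 probe sets of the loop. The line for 204760_s_at stands at 4.66, in the bin farthest to the right, and both RORA lines, at 0.34 and 0.60, lie in the bulk of the distribution.

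REV-ERB alpha is the stronger and more rhythmic of the REV-ERB receptors in most tissues studied. On 204760_s_at the intensity was 666.2 at 3 AM, 348.8 at 7 AM, 41.2 at 11 AM, 48.3 at 3 PM, 138.2 at 7 PM and 777.3 at 11 PM. The signal was therefore high on the late-night arrays and near the bottom of its range on the late-morning and afternoon arrays. The fitted peak lay at 1.61 h ± 0.34 (SE), shortly after midnight, with a log2 peak-to-trough difference of 4.66 ± 0.42 (SE). The values at 11 AM, 3 PM and 7 PM, 3 of 6 arrays, lay below the level cut of 157, and detection calls were not used. The probe set thus passed that filter through its high arrays, and the size of its difference is not a measured fold. With a pseudocount of 16 in place of 1 the log2 difference was 4.22, and its rank by size among the 11108 probe sets was 2 in place of 1. Its limma p was 2.17e-05, and its adjusted p of 0.208 did not pass. The exact p of its R2 over the 60 circular orders of the arrays was 0.0667, where the smallest possible is 0.0167.

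The second probe set of NR1D1/THRA, 31637_s_at, read 4438.7 at 3 AM, 3404.9 at 7 AM, 2173 at 11 AM, 1476.2 at 3 PM, 3275 at 7 PM and 3648.4 at 11 PM. It too was high at night and lowest in the afternoon, but over a 3.01-fold range. The fitted peak was at 1.88 h ± 0.91, within the error of that of 204760_s_at, and the log2 difference was 1.38 ± 0.33 (SE; limma unadjusted p = 0.0107, adjusted p = 0.866). Its exact p over the 60 orders was 0.0167, the smallest they can give. Without the 3 PM array its limma unadjusted p = 0.0807, and the fitted difference was smaller. The sizes on both probe sets differed by a log2 peak-to-trough of 3.28, a difference that did not pass the exact order test (exact p = 0.1, adjusted over 5 such pairs 0.125).

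The third, 217476_at, had a dim signal from 25.2 to 56.2 that lay below the level filter and was not tested. Its highest value was at 11 AM and its next at 11 PM, so it did not share the course of the other pair. Its fitted log2 difference was 0.19 with an R2 of 0.0248.

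Because these probe sets carry the names of both genes, the probe sets that name THRA alone were set beside them. NR1D1 and THRA lie next to each other, and their annotated spans overlap in RefSeq's annotation of the macaque assembly T2T-MMU8v2.0. The brightest THRA probe set, 35846_at, ran only from 425.9 at 7 PM to 551 at 11 AM, and thus stood at its highest when 204760_s_at stood at its lowest. Its log2 peak-to-trough difference was 0.41 ± 0.26 (SE; limma unadjusted p = 0.335) with a fitted peak at 8.01 h. A second one above the level filter, 1316_at, had 0.36 ± 0.26 (SE) at 21.4 h. The fitted course of 204760_s_at differed from that of 35846_at by a log2 peak-to-trough of 4.72 (exact p = 0.0667, adjusted 0.111), and that of 31637_s_at by 1.46 (exact p = 0.0667, adjusted 0.111). Neither difference passed after adjustment over the 5 pairs. These pairs were chosen after the data had been seen.

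**Figure D2:**
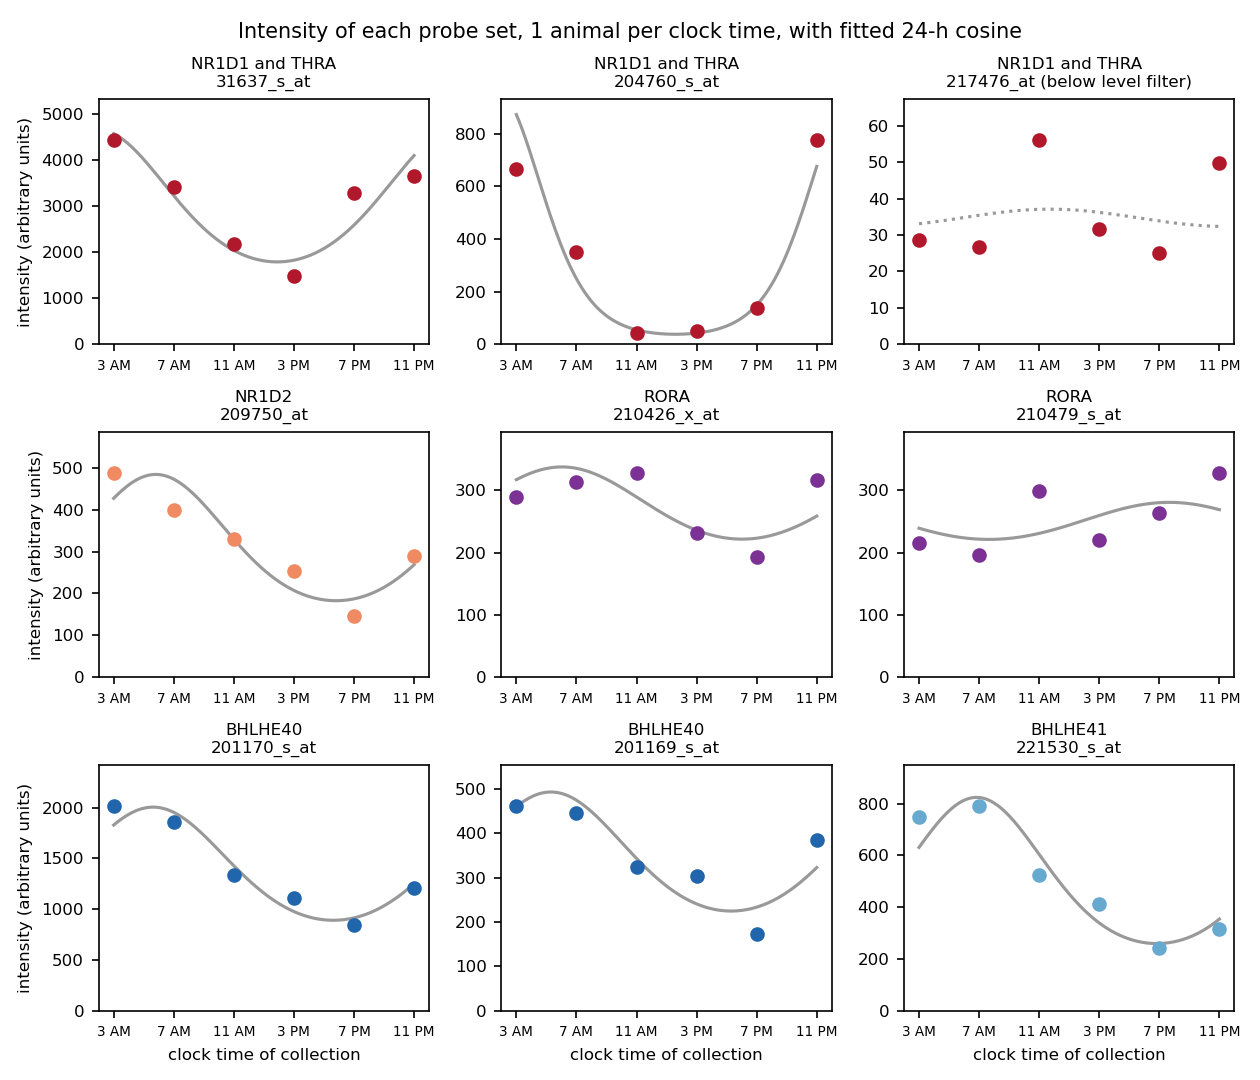
Intensity (vertical axes, arbitrary units from 0) of the 9 probe sets against clock time of collection, 1 point per animal, with the fitted 24-h cosine as a grey line (dotted where the probe set was below the level filter). The NR1D1/THRA probe sets 31637_s_at and 204760_s_at are lowest at 3 PM and 11 AM, whereas NR1D2, BHLHE40 and BHLHE41 are lowest at 7 PM.

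NR1D2, which encodes REV-ERB beta, had a later fitted peak than the NR1D1/THRA pair and a smaller range than 204760_s_at. Its single probe set, 209750_at, read 487.2 at 3 AM, 398.6 at 7 AM, 330.4 at 11 AM, 253.6 at 3 PM, 147.2 at 7 PM and 288.9 at 11 PM. The values stepped down from the 3 AM array to the 7 PM array, a 3.31-fold range, and stood higher again at 11 PM. The fitted peak was at 5.80 h ± 0.94 and the log2 difference was 1.40 ± 0.34 (SE; limma unadjusted p = 0.0127, adjusted p = 0.866; exact p = 0.05). Without the 7 PM array the log2 difference was 0.97 (limma unadjusted p = 0.0912).

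RORA, the activator of the loop, had no probe set with a limma unadjusted p under 0.05 for the 24-h curve. With 1 animal per clock time this does not show that a pattern is absent. Probe set 210426_x_at read 288.2 at 3 AM, 312.4 at 7 AM, 327.4 at 11 AM, 231.9 at 3 PM, 192.4 at 7 PM and 316.4 at 11 PM. It was low at 3 PM and 7 PM and nearly level on the other 4 arrays. Its log2 difference was 0.60 ± 0.31 (SE; limma unadjusted p = 0.219). The other probe set, 210479_s_at, read 214.8 at 3 AM, 196.6 at 7 AM, 298.6 at 11 AM, 219.8 at 3 PM, 263.7 at 7 PM and 327.8 at 11 PM, with a log2 difference of 0.34 ± 0.35 (SE; limma unadjusted p = 0.640). The fitted peaks, at 6.03 h and 19.7 h, were nearly opposite, with standard errors of 1.98 h and 3.92 h. The difference between both RORA profiles had a log2 peak-to-trough of 0.93 (exact p = 0.05, adjusted over the 5 pairs 0.111) and did not pass. Both probe sets were highest or next to highest at 11 AM and 11 PM.

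BHLHE40 (DEC1), a repressor that is also induced by low oxygen and by many hormones, gave a similar course on both of its probe sets. The brighter, 201170_s_at, read 2014.4 at 3 AM, 1863.3 at 7 AM, 1340.6 at 11 AM, 1105 at 3 PM, 847.7 at 7 PM and 1207.5 at 11 PM. The dimmer, 201169_s_at, read 461.2, 446.2, 324.7, 304.4, 173.7 and 385.2 at the same times. In both the 3 AM array was highest, the 7 AM array next and the 7 PM array lowest, with ranges of 2.38-fold and 2.66-fold. Their fitted peaks were 5.62 h ± 0.91 and 5.30 h ± 1.22, and their log2 differences 1.17 ± 0.28 and 1.13 ± 0.36 (SE). The limma unadjusted p values were 0.0107 and 0.0429, with an adjusted p of 0.866 for both. The difference between both profiles was small, a log2 peak-to-trough of 0.11 (exact p = 0.983). Without the 7 PM array neither had an unadjusted p under 0.05 (limma unadjusted p = 0.0706 and unadjusted p = 0.176). The log2 difference of 201169_s_at was 0.67 without that array, and it also lost the unadjusted call without the 3 AM, the 7 AM or the 11 AM array.

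BHLHE41 (DEC2), the close relative of BHLHE40, had the largest fitted change of the single-gene probe sets in the loop when age was not in the fit. Probe set 221530_s_at read 749.7 at 3 AM, 790 at 7 AM, 522.6 at 11 AM, 413.7 at 3 PM, 242 at 7 PM and 314.6 at 11 PM. The 3 AM and 7 AM arrays stood well above the rest. The 11 PM array lay below the 3 PM array, whereas on both BHLHE40 probe sets it lay above it. On 201170_s_at of BHLHE40 that gap was small (1207.5 against 1105), and the 11 PM value lay below the probe set's own mean. The fitted peak was at 6.83 h ± 0.74 and the log2 difference was 1.67 ± 0.32 (SE; limma unadjusted p = 0.00343, adjusted p = 0.866; exact p = 0.0833). The unadjusted call held without each single array, with log2 differences from 1.51 to 1.90.

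In order of fitted peak, the probe sets with an unadjusted p under 0.05 ran from NR1D1/THRA (1.61 h and 1.88 h) through BHLHE40 (5.30 h and 5.62 h) and NR1D2 (5.80 h) to BHLHE41 (6.83 h). From BHLHE40 to BHLHE41 the standard errors of the peaks were 0.74 h to 1.22 h, and the differences between neighbours in this order were not tested by peak time. Of the 8 probe sets, 5 were lowest at 7 PM, where 15.6% of all probe sets tested were lowest. At 3 AM and at 7 AM 7 of the 8 lay above their own mean, at 11 AM and at 11 PM 5 did, at 3 PM 0 did and at 7 PM 2 did. No share over all probe sets tested stands beside these counts above the mean, so they are given as description only. NR1D1/THRA, RORA and BHLHE40 each have more than 1 probe set among the 8. The 3 PM and 7 PM arrays also had the highest GAPDH 3'/5' ratios, 1.16 and 1.15, whose part in these values was not tested. Differences between the members were tested for all 10 pairs, each member by its brightest probe set, and none of the 10 passed. The smallest exact p was 0.05, for BHLHE40 against BHLHE41 (log2 peak-to-trough of the difference 0.66, adjusted p = 0.5), and the next 0.183, for NR1D1/THRA against BHLHE41 (1.85, adjusted p = 0.5). With 204760_s_at in place of 31637_s_at, the fitted difference of NR1D1/THRA was 4.21 from NR1D2 and 4.62 from BHLHE41. Each had an exact p of 0.0167 and an adjusted p of 0.0833, so neither passed. On 3 of 6 arrays 204760_s_at lay below the level cut, so these sizes are not measured folds.

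**Figure D3:**
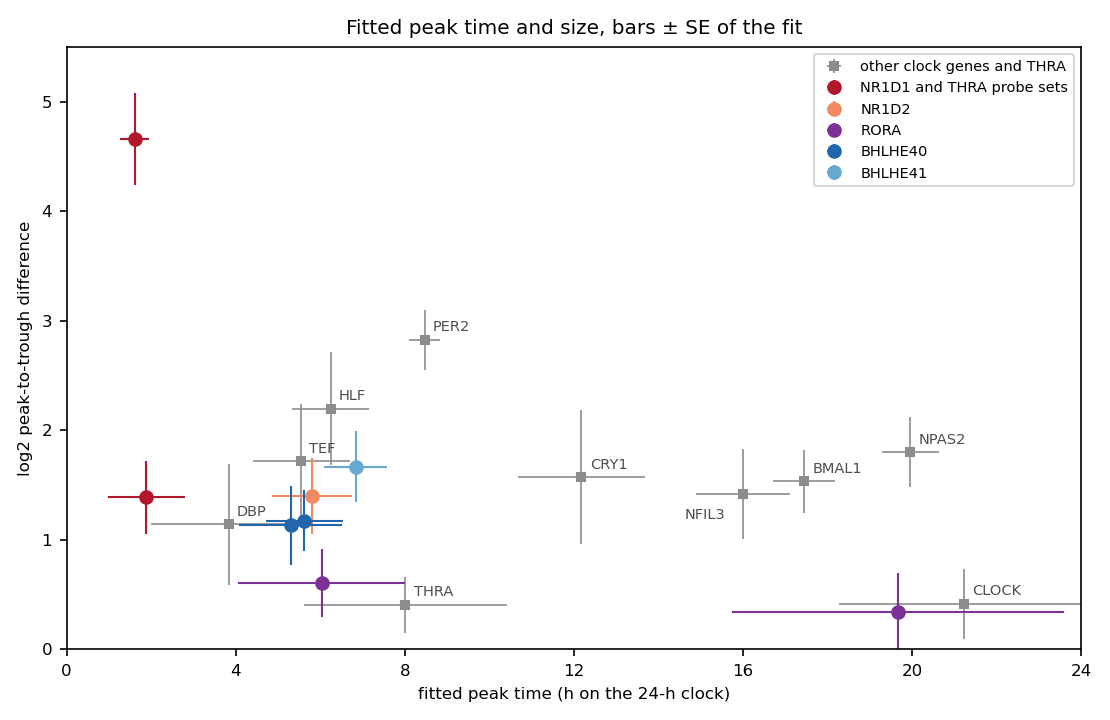
Fitted peak time (horizontal axis, hours) against the log2 peak-to-trough difference (vertical axis) of the 8 probe sets of the loop (circles) and of 9 other clock genes and THRA (grey squares), with bars of ± 1 SE of the fit. The NR1D1/THRA circles lie near 1.61 h and 1.88 h, those of NR1D2, BHLHE40 and BHLHE41 between 5.30 h and 6.83 h, and BMAL1 at 17.4 h.

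The animals' ages followed the clock in part, with a cosine fitted to age peaking at 6.23 h (R2 = 0.947), so that age and clock time can hardly be told apart for probe sets that peak near that hour. This touched the members unequally. For BHLHE41 Pearson's r with age was 0.98 (exact permutation p = 0.00278, adjusted over the 5 members 0.00926; Spearman's rho 0.99, exact p = 0.00556, adjusted 0.0278). For BHLHE40, on 201170_s_at, r was 0.97 (exact p = 0.00556, adjusted 0.00926; rho 0.93, exact p = 0.0222, adjusted 0.0370), and for NR1D2 r was 0.91 (exact p = 0.00556, adjusted 0.00926; rho 0.93, exact p = 0.0222, adjusted 0.0370). Without the 3 AM and 7 AM animals, those farthest from the median age, r was 0.93, 0.88 and 0.84 over 4 animals. For NR1D1/THRA, on 31637_s_at, r was 0.37 (exact p = 0.481, adjusted 0.481; rho 0.32, exact p = 0.544, adjusted 0.544) and -0.39 without these animals. For RORA, on 210426_x_at, r was 0.63 (exact p = 0.178, adjusted 0.222; rho 0.35, exact p = 0.494, adjusted 0.544) and 0.78 without them. On the other probe sets of these genes the values differed. With 201169_s_at for BHLHE40 r with age was 0.79 and did not pass (exact p = 0.0444, adjusted 0.0741), which left 2 members of 5 past adjustment in place of 3. With 210479_s_at for RORA the sign turned, r being -0.57 (exact p = 0.214, adjusted 0.267).

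A straight line on age had an R2 of 0.137 on 31637_s_at and 0.105 on 204760_s_at, where the cosine had 0.850 and 0.963. For NR1D2 the line and the cosine were nearly equal (0.820 and 0.826). The line had the higher R2 on 201170_s_at of BHLHE40 (0.944 against 0.929) and for BHLHE41 (0.952 against 0.900). It was also higher on 210479_s_at of RORA (0.328 against 0.207). The cosine had the higher R2 on 201169_s_at of BHLHE40 (0.720 against 0.631) and on 210426_x_at of RORA (0.589 against 0.402). No test compared the line with the cosine on any probe set. When age entered the fit, 204760_s_at had a log2 difference of 5.21 (limma unadjusted p = 0.000126) and 31637_s_at had 1.47 (unadjusted p = 0.0277), the only members of the 8 with an unadjusted p under 0.05 in that fit. NR1D2 then had 0.65 (limma unadjusted p = 0.842), 201170_s_at of BHLHE40 0.24 (unadjusted p = 0.798) and BHLHE41 0.49 (unadjusted p = 0.627). Age itself followed a 24-h cosine with a peak at 6.23 h (R2 = 0.947). A probe set that peaks near that hour therefore loses most of its curve in this fit by design. The contrast with NR1D1/THRA, which peaks earlier, was thus largely set in advance. The fitted difference was larger with age for 201169_s_at of BHLHE40 (1.32) and for the RORA probe sets 210426_x_at (2.23, limma unadjusted p = 0.280) and 210479_s_at (1.90, unadjusted p = 0.394), and none of the 3 had an unadjusted p under 0.05 in that fit. The animals of 3 PM and 11 PM were of nearly the same age. Between them 204760_s_at read 48.3 at 3 PM, below the level cut, and 777.3 at 11 PM. The probe set 31637_s_at was 2.47 times higher at 11 PM, a rise exceeded by 1.60% of the probe sets tested. Its lowest array was that of 3 PM. The 3 PM and 11 PM arrays also differed in hybridisation controls (669 and 1101) and in the GAPDH 3'/5' ratio (1.16 and 0.880), whose part was not tested. Between the same animals NR1D2 was 1.14 times and 201170_s_at of BHLHE40 1.09 times higher at 11 PM, and BHLHE41 was 1.32 times higher at 3 PM. The fitted troughs of these probe sets, at 17.8 h, 17.6 h and 18.8 h, lay between 3 PM and 11 PM. Both times thus fall on either side of the trough, and this pair cannot tell age from clock time for them. The 3 AM and 7 AM animals were both 12 years old, and 204760_s_at was 1.91 times higher at 3 AM in that pair. These are single animals and carry no test, so the part of age in the NR1D1/THRA values was not tested by these pairs either.

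BMAL1 is the best known target of the REV-ERB and ROR receptors, and it ran opposite to NR1D2 and both DEC genes. Its intensity on 209824_s_at was 609.5 at 3 AM, 619.8 at 7 AM, 986.5 at 11 AM, 1278.2 at 3 PM, 1838 at 7 PM and 997.1 at 11 PM, a fitted peak at 17.4 h. The other BMAL1 probe set above the level filter, 210971_s_at, had a fitted peak at 17.7 h. It was lowest at 7 AM (235, against 332.3 at 3 AM) and highest at 3 PM (758.5, against 751.5 at 7 PM). The correlations below were taken with 209824_s_at. Over the 6 animals r with BMAL1 was -0.99 for 201170_s_at of BHLHE40 and -0.97 for NR1D2 (each exact permutation p = 0.00139, the smallest possible, adjusted over the 5 members 0.00347). Spearman's rho was -1 for both (exact p = 0.00278, adjusted 0.00694), so the animals stood in reverse order on 209824_s_at. On 210971_s_at of BMAL1 the order was not fully reversed. For BHLHE41 r was -0.91 (exact p = 0.0194, adjusted 0.0324; rho -0.89, exact p = 0.0333, adjusted 0.0556). Without the 7 PM and 3 AM animals, farthest from the median of BMAL1, r was -0.98 for BHLHE40, -0.96 for NR1D2 and -0.78 for BHLHE41. For NR1D1/THRA r was -0.44 (exact p = 0.381, adjusted 0.381; rho -0.60, exact p = 0.242, adjusted 0.302), and for 210426_x_at of RORA -0.77 (exact p = 0.0889, adjusted 0.111; rho -0.49, exact p = 0.356, adjusted 0.356). Without the same animals these were -0.72 and -0.61. With 210479_s_at for RORA the sign turned here too, r being 0.44 (exact p = 0.381, adjusted 0.381), and with 201169_s_at for BHLHE40 r was -0.94 (exact p = 0.00417, adjusted 0.0104). The same 6 animals give the correlations with BMAL1 and with age. BMAL1 itself was lowest in the oldest animals (609.5 and 619.8) and highest in the youngest (1838). The exact pairings treat the arrays as exchangeable, although BMAL1, these members and age each follow a course over the day. Courses in the same or opposite phase can give a small p by themselves, so a link between the genes was not tested.

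**Figure D4:**
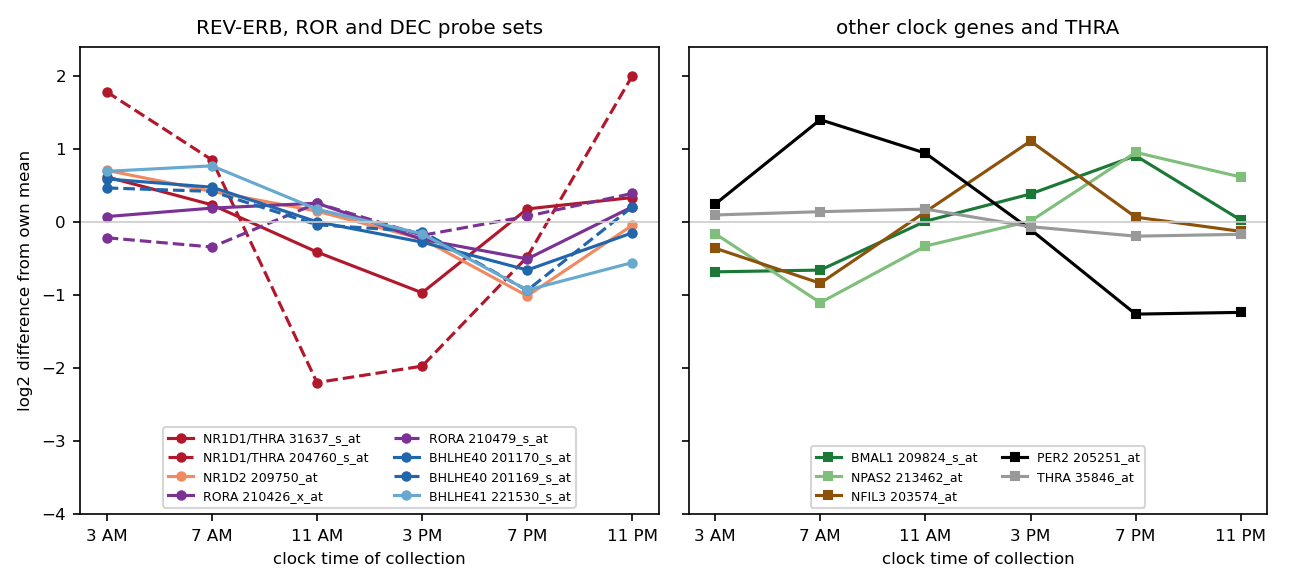
Log2 difference from each probe set's own mean (vertical axis) against clock time for the 8 probe sets of the loop (left; solid lines are the brightest probe set of a gene, dashed lines the others) and for BMAL1, NPAS2, NFIL3, PER2 and THRA (right). BMAL1 is highest at 7 PM, where NR1D2, BHLHE40 and BHLHE41 are lowest, and the 204760_s_at line spans the widest range.

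Other clock genes known to carry ROR response elements were taken as a list of 6, of which 5 were tested. Of these 3 had an unadjusted p under 0.05 by limma and 0 passed after adjustment, with a median F of 5.95. Over all probe sets tested 5.44% had such a p and the median F was 0.862. They were NPAS2, the partner of BMAL1 (highest at 7 PM, ratio 3.49, limma unadjusted p = 0.00194), BMAL1 (ratio 2.89, unadjusted p = 0.00298) and NFIL3, a repressor of D-box genes (highest at 3 PM, ratio 2.67, unadjusted p = 0.0283). CRY1 (ratio 2.98, limma unadjusted p = 0.0949) and CLOCK (ratio 1.33, unadjusted p = 0.468) did not reach that threshold. NFIL3 had its highest intensity, 962.5, at 3 PM, on the array with the lowest value of 31637_s_at. Of 8 other genes switched on through E-boxes, 5 were tested and 3 had an unadjusted p under 0.05 (5.44% of all probe sets), with a median F of 5.55 against 0.862 over all, and 0 passed after adjustment. These were PER2 (8.47 h, ratio 7.09), HLF (6.24 h, ratio 4.58) and TEF (5.55 h, ratio 3.29), all with peaks after those of the NR1D1/THRA probe sets. Each was read on its brightest probe set. On another tested probe set PER2 had a ratio of 2.20 at 8.04 h (208518_s_at, limma unadjusted p = 0.0446). HLF on 204754_at had only 1.42 at 11.7 h (limma unadjusted p = 0.249). DBP, another E-box gene, had a fitted ratio of 2.21 at 3.83 h and did not reach that threshold (limma unadjusted p = 0.184).

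Genes of proteins that work with the REV-ERB and ROR receptors were also taken as lists. So few genes were tested that a count of 0 lies near the share over all probe sets and shows no absence of a pattern. Of the co-repressor genes 4 of 6 were tested and 0 had an unadjusted p under 0.05 by limma, where 5.44% of all probe sets did. The smallest p belonged to TBL1XR1 (0.0847, ratio 2.17, 5.29 h), a subunit that recruits ubiquitin enzymes, and GPS2 (0.228, ratio 1.43). HDAC3, the deacetylase of the complex, had a ratio of 1.31 (limma unadjusted p = 0.490). Of the co-activators 4 of 6 were tested with 0 past it, the smallest p being those of EP300 (0.201, ratio 1.44) and NCOA2 (0.204, ratio 1.57). Of kinases and ubiquitin ligases that act on REV-ERB alpha protein 7 of 7 were tested with 0 past it, led by FBXW7 (0.185, ratio 1.45) and SIAH2 (0.257, ratio 1.54). The other receptors of the family were RORB (ratio 1.71, limma unadjusted p = 0.384) and THRB (ratio 1.22, unadjusted p = 0.617), beside THRA above.

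Haem is the ligand of both REV-ERB proteins, and 11 of 12 genes of its synthesis and breakdown were tested. Of these 0 had an unadjusted p under 0.05 by limma, where 5.44% of all probe sets tested did. Their median F was 0.291 against 0.862 over all. The smallest p belonged to BLVRB, a biliverdin reductase (0.138, ratio 1.70, 23.4 h), and HMOX1, the inducible haem oxygenase (0.185, ratio 1.57, 17.3 h). ALAS1, the rate-limiting enzyme, had a ratio of 1.28 (limma unadjusted p = 0.796) but ran from 2916.1 at 7 PM to 8323.8 at 11 PM, both evening arrays. Among hypoxia genes, set beside the hypoxia-inducible DEC genes, 8 of 11 were tested with 0 past the threshold (5.44% of all probe sets). They were led by BNIP3 (limma unadjusted p = 0.111, ratio 2.06, 19.6 h) and the stress-response gene NDRG1 (0.440, ratio 1.30). With so few genes in the haem and hypoxia lists, 0 lies near the share over all probe sets. HIF1A itself had a ratio of 1.27.

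Genes outside the clock described as REV-ERB or ROR targets were measured for 11 of 12 and tested for 7, of which 1 had an unadjusted p under 0.05 by limma (5.44% of all probe sets tested) and 0 passed after adjustment. This was LPL, lipoprotein lipase (fitted peak 1.35 h, ratio 3.07, limma unadjusted p = 0.0140), which read 1086.5 at 3 AM, 850.7 at 11 PM and 279.3 at 3 PM, its lowest. PCK1, the gluconeogenic enzyme, had the next smallest p (0.0860, ratio 7.04, 2.72 h) and was likewise highest at 3 AM (599.8) and lowest at 3 PM (39.2). At 7 AM, where both NR1D1/THRA probe sets lay above their means, PCK1 read 101.1 and LPL 411.8. LPL is also an adipocyte marker, and 5 of 5 adipocyte markers, LPL included, summed to 3716 at 3 AM and 3175 at 11 PM against 1287.4 at 3 PM. The 4 without LPL summed to 2629.5 at 3 AM, 2324.3 at 11 PM, 1008.1 at 3 PM and 890 at 7 AM, their lowest. The 5-marker sum and 31637_s_at of NR1D1/THRA were both highest at 3 AM and lowest at 3 PM. The part of adipose RNA in the LPL, PCK1 and NR1D1/THRA values was not tested. None of these markers was at 0 on any array.

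Markers of other cell types also moved between arrays, and their part in the results was not tested. The cortex markers (8 of 10 measured) were lowest at 3 AM and highest at 7 PM, while NR1D2 and both BHLHE40 probe sets were highest at 3 AM and, like BHLHE41, lowest at 7 PM. Lymphocyte markers (5 of 6) were highest at 7 PM (1299.9) and lowest at 11 AM (930.8), the arrays on which 210426_x_at of RORA was lowest and highest. That sum rested largely on CD3E, below the level filter, which read 25.9 at 11 AM and 262.6 at 7 PM. CD79A and MS4A1 were also higher at 7 PM. CD2 and CD3D went the other way, with 193.2 and 243.6 at 11 AM against 182.1 and 200.2 at 7 PM. Smooth muscle markers (5 of 5) ran from 2758.7 at 11 PM to 7447.8 at 7 PM, and macrophage markers (4 of 5) from 884.7 at 7 PM to 1406.7 at 11 PM. Endothelial markers (5 of 5) ran from 1121.2 at 11 PM to 2206 at 3 AM, fibroblast markers (6 of 6) from 13279 to 16482, and red blood cell markers (2 of 5) from 1501 to 2699.7. Schwann and glial markers (3 of 5) ran from 438.9 to 708.7 and kidney markers (3 of 5) from 413.3 to 593.3.

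The genes whose profiles were most like each member were taken by Pearson's r over the 6 arrays among 2864 single-gene probe sets with an observed range of at least 1 on the log2 scale. With so many profiles and 6 arrays, 6 to 10 probe sets exceeded an r of 0.95 for each member. For 31637_s_at of NR1D1/THRA they were SLC25A46, a protein of the mitochondrial outer membrane (r = 0.982), the pseudogene HMGB3P1 (0.978) and the ubiquitin protease USP33 (0.972). For NR1D2 they were HLA-DMA, which loads peptides onto class II molecules (0.984), the kinetochore gene ZWINT (0.979) and CIITA, the class II transactivator (0.978). For RORA they were the centrosomal gene CDK5RAP2 (0.995), the phosphatase gene PTPRA (0.981) and DMD, the dystrophin gene (0.977). For BHLHE40 they were HLA-DMA again (0.987), the zinc transporter SLC39A14 (0.987) and the histone demethylase KDM6A (0.973). For BHLHE41 they were ENPP2, which makes lysophosphatidic acid (0.985), the cohesin loader NIPBL (0.977) and the Golgi SNARE gene GOSR2 (0.975).

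**Figure D5:**
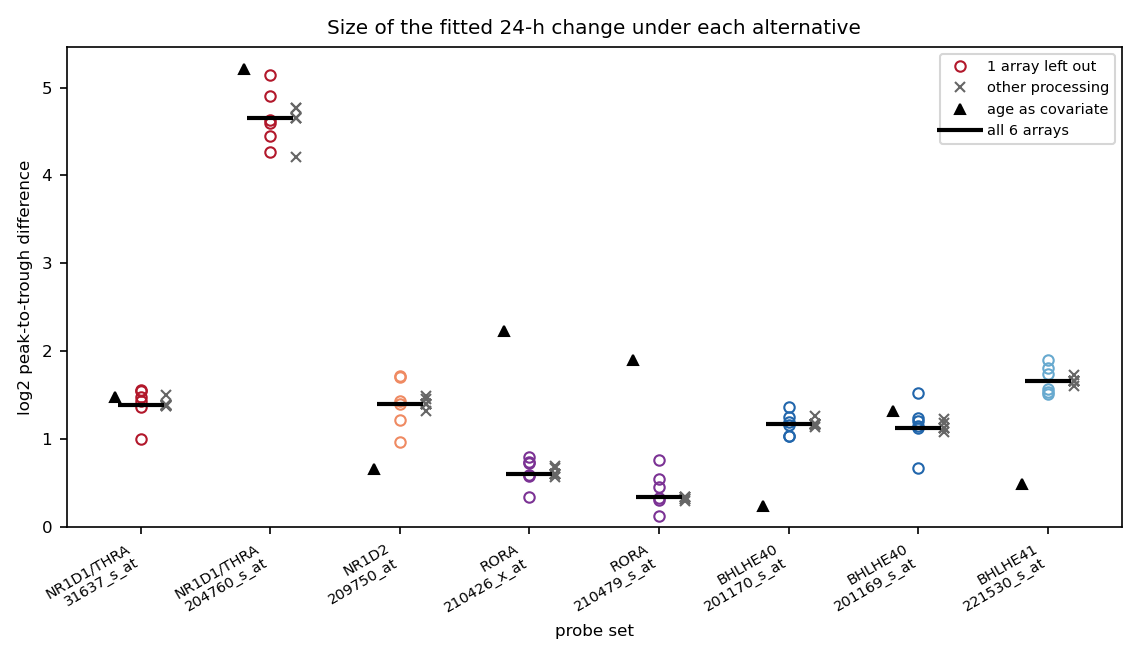
Log2 peak-to-trough difference (vertical axis) of the 8 probe sets with all 6 arrays (black bar), with 1 array left out (open circles), with other processing (crosses) and with age as a covariate (triangle). All symbols of 204760_s_at lie between 4.22 and 5.21, whereas the age triangle lies below every other symbol for NR1D2, 201170_s_at of BHLHE40 and BHLHE41.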

How the data were processed

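The authors deposited linear intensities, 1 for each probe set on each array, that run from 0.1 to 40394. Their equal trimmed means show scaling to a common level, and no label names the software. Of 22283 probe sets, 68 are controls, and of the others 19065 name 1 gene, 1043 several and 2107 none in GEO's platform annotation. The members and gene lists were chosen with earlier results of these data known. A cosine of period 24 h was fitted with limma 3.58.1 in R 4.3.3 to log2(intensity + 1) per probe set, where the mean log2 reached the median, 7.30. Both terms were tested with its moderated F, and p-values were adjusted by Benjamini-Hochberg (threshold 0.05). With 3 residual degrees of freedom, and fewer with age in the fit or an array left out, p-values rest on how far single animals lie from the curve. Standard errors came from the fit by the delta method. Exact tests took R2 over the 60 circular orders, or r over the 720 pairings, two-sided. The scripts were tested on simulated data. Named genes were every member, THRA and 6 clock genes, the 2 list genes with the smallest p, and the 3 nearest profiles. Any other gene named was picked with its values in view. The number of arrays limits the precision.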

Additional observations from a re-analysis of the deposited data

How the results depend on the processing

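Probe sets past adjustment over all numbered 0 under every alternative run except the stricter level filter, where fewer probe sets were tested and 1 passed, PER2. Probe sets at an unadjusted p under 0.05 with a fitted ratio of at least 1.5 numbered 604 of 11108. They were 1141 of 22215 without the level filter, 347 of 5554 under the stricter one and 399 of 7165 with 1 probe set per gene. Of 11108 they were 417 with the ordinary F test, 638 with age as a covariate and 521 to 799 without single arrays. The 6 of 8 loop probe sets at that p became 5 of 9 without the level filter, 3 of 3 with the stricter filter and 4 of 5 with 1 probe set per gene. Of 8 they were 3 with the ordinary F test, 2 with age as a covariate, and 3 to 6 without single arrays. With age as a covariate the fitted peak moved by over 6 h for BHLHE41 (log2 difference 0.49) and for 210479_s_at of RORA (1.90); the cause was not tested. Of 112 alternatives for single probe sets of the loop, 97 kept their side of the unadjusted threshold, 27 of them past it in neither fit, 15 lost it and 0 gained it. No paired analysis was possible because no clock time holds a second animal. Detection calls were not used, so dim probe sets are limited by the level filter alone.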
